A study of Mus musculus with 4 samples.

Results

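Genes for making, taking up and moving cholesterol were read in single nuclei of livers from fasted and fed mice. The set was chosen by symbol and holds 32 of the 32285 genes in the deposited tables. Of these, 8 belong to the mevalonate pathway and its first branches, 12 make squalene and turn it into cholesterol, 4 encode the transcription factor SREBP2 and the proteins that process it, 3 act in lipoprotein uptake and 5 move or esterify cholesterol. The fasted mice had gone 16 to 24 h without food, and the fed mice were the controls. Each of the 4 libraries, 2 a group, was a preparation of nuclei from 50 mg of frozen liver pooled over 8 mice, loaded with 10x chemistry 3.1. No strain, genotype, sex or age is named in the labels, and no agent other than the feeding state. Since the labels do not say that the preparations of a group came from separate mice, p-values measure only the spread between preparations, which may be technical.

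Cells build cholesterol from acetyl-CoA. The mevalonate pathway makes farnesyl pyrophosphate, which is either joined into squalene for sterols or passed to side branches such as geranylgeranyl pyrophosphate. SREBP2 stays in the endoplasmic reticulum with its escort protein Scap, held there by Insig proteins, when sterols are plentiful. When sterols run low it travels to the Golgi, is cut by a pair of proteases and turns on most genes of the pathway. The liver is a main site of this synthesis, of lipoprotein uptake and of cholesterol disposal into bile.

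The 4 libraries held 8078755 to 30955600 UMIs (unique molecular identifiers, which count captured transcripts). After filtering, 29818 nuclei formed 13 clusters. Hepatocytes, recognised by fixed markers, made up 19162 nuclei. They fell into 7 clusters, and 6 of these drew most of their nuclei from a single library. Endothelial (5199), Kupffer or macrophage (1841), stellate (1780) and cholangiocyte (588) nuclei were also named from such markers, and 1248 nuclei were left unnamed. Fed replicate 2 stood apart by depth, since its median hepatocyte held 1275 UMIs and those of the other libraries 2537 to 3233. Fed replicate 1 stood apart by its acute phase genes, which summed to 2700 CPM in hepatocytes (CPM is a gene's UMIs over all UMIs of that cell type in that library, scaled to a fixed total) against 328 to 823 CPM elsewhere. Fed replicate 2 differed in markers too. Its 10 hepatocyte markers summed to 10947 CPM in hepatocytes against 18017 to 23366 CPM elsewhere. The 10 endothelial markers summed to 87.4 CPM there against 8.83 to 40.1 CPM. The part of these differences between libraries in the results below was not tested. Any pair of libraries shared 12 to 42 barcodes, at most 0.431% of the smaller library. In summed nuclei, fewer nuclei with a transcript and less RNA per nucleus cannot be told apart.

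Most synthesis genes had lower levels in fasted hepatocytes, with median log2 fold changes (fasted over fed) of -1.52 for the mevalonate pathway and -1.44 from squalene on, against -0.083 for the SREBP2 machinery and -0.15 for uptake. The median was -1.21 over the 32 genes against -0.0085 over all 14096 genes tested. The sign was negative for 26 of the 32, against 50.7% of all genes, and positive for 6, against 49.3%. In 19 of the 32, both fasted libraries lay below both fed ones, which held for 15.7% of all genes. In 3 (Ggps1, Mbtps1 and Soat2) both lay above, against 20.4% of all genes.

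No gene of the set passed the test over all genes in edgeR (adjusted p under 0.05, n = 2 and 2), where 0% of all genes passed as lower and 0.00709%, a single gene, as higher. At an unadjusted p under 0.05 edgeR counted 14 of the 32 as lower, against 3.11% of all genes, and 0 as higher, against 3.72%. DESeq2 called 6 of the 32 lower and 0 higher, against 0.638% of all genes in each direction. The 6 were Sqle, Fdps, Mvd, Cyp51, Stard4 and Nsdhl. Without fed replicate 2 the median of the set was -0.46 and 21 genes had a negative sign, with 6 called lower in edgeR, where 184 of 15032 genes were called in either direction. Without fed replicate 1 the median was -1.24 and edgeR called 12 lower, where 629 of 14881 genes were called. Both settings thus raised the calls over all genes as well, from 1.

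**Figure D1:**
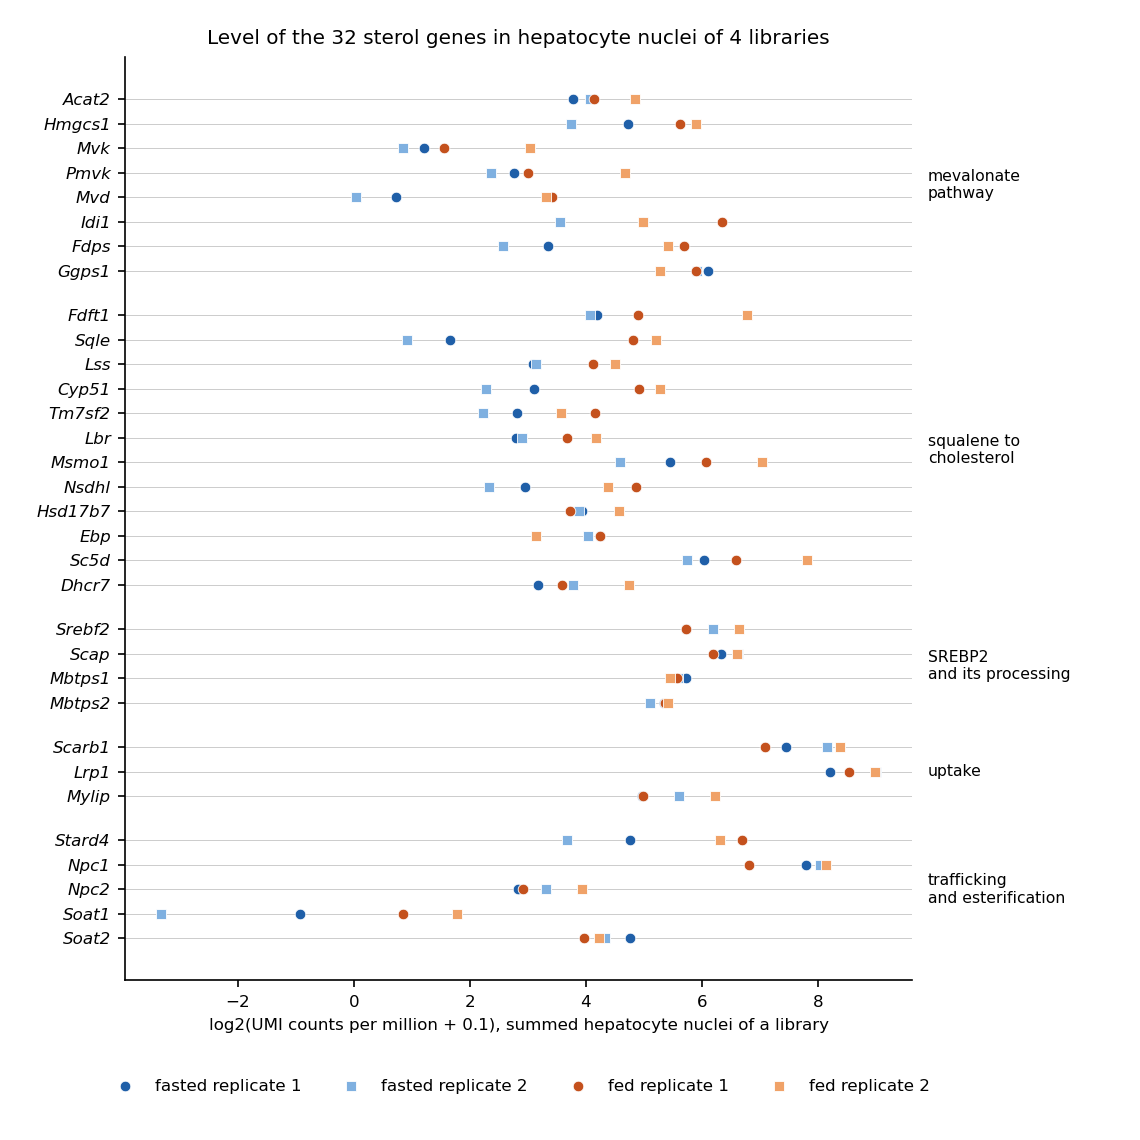
Level of each of the 32 genes in hepatocyte nuclei, as log2(CPM + 0.1), grouped by role; each point is 1 library (blue fasted, orange fed; circles replicate 1, squares replicate 2). In the mevalonate and squalene groups the blue points lie mostly left of the orange ones, as for Sqle at 3.05 and 1.80 against 28.0 and 36.9 CPM, while for Scap and Mbtps2 they lie together.

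Within the mevalonate pathway 7 of 8 genes were lower in fasted hepatocytes, against 50.7% of all genes, with a median log2 fold change of -1.52. The groups did not overlap for all 7, which held in this direction for 15.7% of all genes. Mvd, the decarboxylase that makes isopentenyl pyrophosphate (chromosome 8, 122433601 to 122443422, minus strand of mm10), stood at 1.55 and 0.924 CPM after fasting against 10.5 and 9.87 CPM with food. This is a log2 fold change of -3.07 (SE 0.54; adjusted p = 0.404 in edgeR and 0.000221 in DESeq2), and the fed libraries lay close together. Fdps, the synthase of farnesyl pyrophosphate (chromosome 3, 89093588 to 89101959, minus strand), stood at 10.1 and 5.85 against 51.6 and 42.8 CPM. Its log2 fold change was -2.60 (SE 0.40; adjusted p = 0.312 in edgeR and 4.98e-05 in DESeq2). Each of these genes was several times lower in every fasted library than in either fed one.

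Hmgcs1, which makes HMG-CoA for the pathway's committed step, had 26.2 and 13.2 CPM after fasting against 48.9 and 59.6 CPM with food. Its log2 fold change was -1.51 (SE 0.43; edgeR adjusted p = 0.578, DESeq2 adjusted p = 0.135). Idi1, which isomerises isopentenyl pyrophosphate, had groups that all but met, with 31.5 CPM in fasted replicate 1 and 31.6 CPM in fed replicate 2. Its other fed library was far higher at 81.1 CPM and its other fasted one lower at 11.6 CPM (log2 fold change -1.41, SE 0.60, and -0.67 without fed replicate 1).

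In the mevalonate kinases the other fed library was the high one. Mvk was at 2.21 and 1.69 CPM after fasting against 2.83 and 8.13 CPM with food (log2 fold change -1.53, SE 0.71). Pmvk, which adds the next phosphate, was at 6.67 and 5.03 against 7.95 and 25.4 CPM (log2 fold change -1.57, SE 0.65). Without fed replicate 2, the shallow library, these values were -0.50 and -0.41. Acat2, the cytosolic thiolase at the start of the route, was at 13.6 and 16.7 against 17.5 and 28.7 CPM (log2 fold change -0.65, SE 0.44, and -0.17 without fed replicate 2). A near-identical neighbouring gene, Acat3, may share its reads. Ggps1, which diverts farnesyl pyrophosphate to geranylgeranyl pyrophosphate, differed in sign from the rest, with 68.9 and 60.4 CPM after fasting against 59.3 and 38.9 CPM with food (log2 fold change 0.37, SE 0.33, and 0.16 without fed replicate 2).

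**Figure D2:**
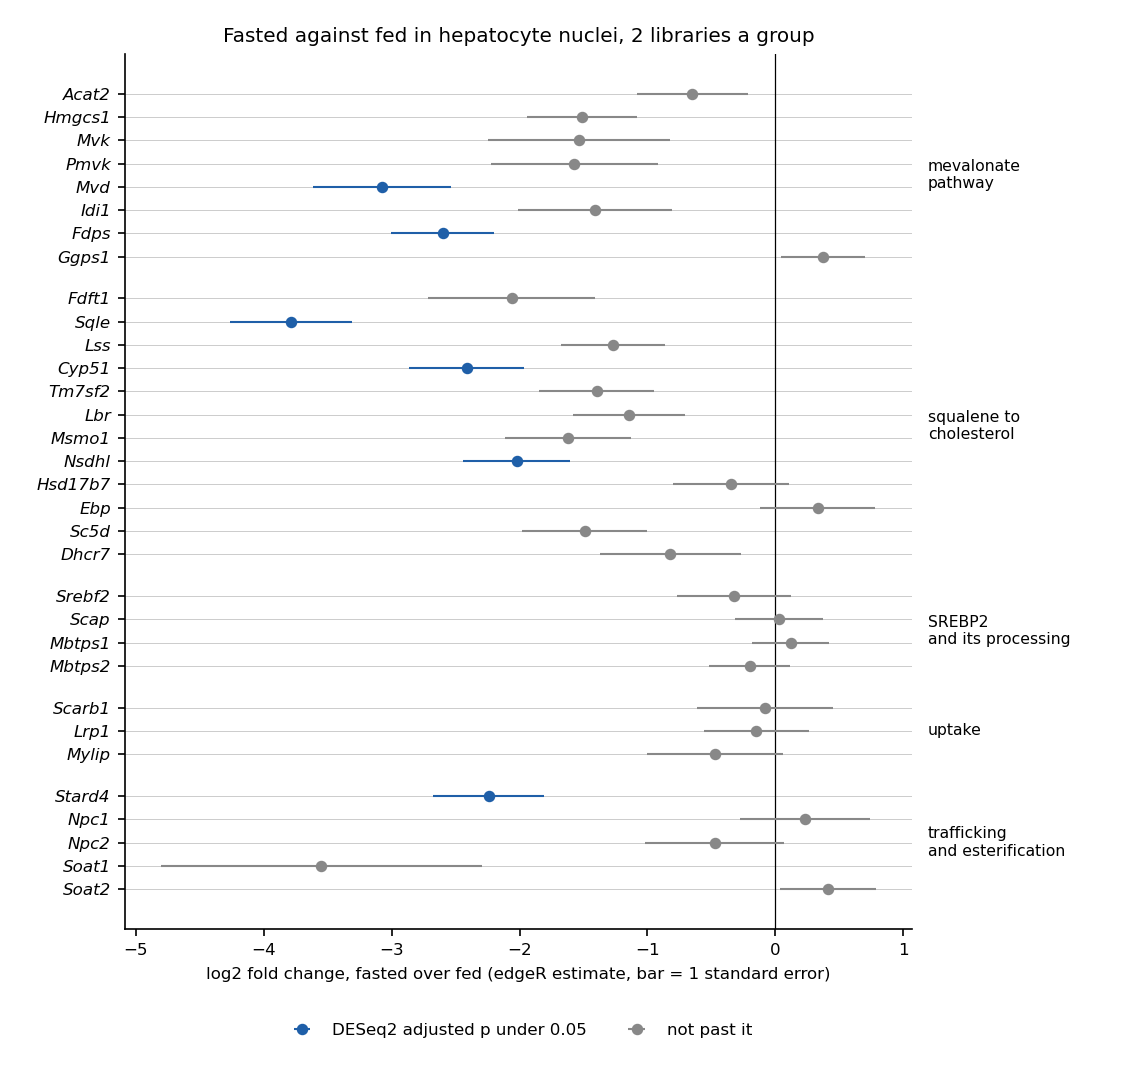
Log2 fold change, fasted over fed, of the 32 genes in hepatocyte nuclei (edgeR estimate, bars 1 SE, 2 libraries a group); blue points passed DESeq2 at an adjusted p under 0.05, and no point passed edgeR. The lowest values were -3.79 for Sqle and -3.55 for Soat1, and the SREBP2 and uptake groups cross or touch 0.

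From squalene to cholesterol, 11 of 12 genes were lower in fasted hepatocytes, against 50.7% of all genes, with a median log2 fold change of -1.44. Of these, 9 were lower without overlap, against 15.7% of all genes. The lowest log2 fold change of the 32 belonged to Sqle, squalene epoxidase, an oxygen-using enzyme that is a control point of the route. Sqle (chromosome 15, 59315077 to 59331192, plus strand) stood at 3.05 and 1.80 CPM after fasting, from 65 and 35 UMIs. With food it stood at 28.0 and 36.9 CPM, from 476 and 254 UMIs. Both fasted libraries lay far below both fed ones. The log2 fold change was -3.79 (SE 0.48; adjusted p = 0.204 in edgeR and 1.15e-09 in DESeq2).

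Cyp51, the demethylase of lanosterol (chromosome 5, 4081145 to 4104746, minus strand), stood at 8.50 and 4.77 against 29.9 and 38.5 CPM (log2 fold change -2.41, SE 0.45; adjusted p = 0.440 in edgeR and 0.000782 in DESeq2). Nsdhl, a dehydrogenase that helps to remove the methyl groups next (chromosome X, 72918557 to 72958514, plus strand), stood at 7.61 and 4.93 against 29.1 and 20.8 CPM (log2 fold change -2.02, SE 0.42; adjusted p = 0.464 in edgeR and 0.0110 in DESeq2). In both genes the groups were well apart. Msmo1, the oxidase that starts removal of those methyl groups, was at 43.7 and 23.9 against 67.5 and 131 CPM (log2 fold change -1.62, SE 0.49, and -0.97 without fed replicate 2). Both pairs of libraries were spread, without overlap between groups.

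Fdft1, squalene synthase, had a wide gap between the fed libraries, 29.7 and 109 CPM, against 18.2 and 16.7 CPM after fasting. Its log2 fold change of -2.06 (SE 0.66; DESeq2 adjusted p = 0.0542) was -0.73 without fed replicate 2. Fdft1 overlaps Ctsb on the opposite strand. Sc5d, the desaturase near the end of the route, was similar at 65.3 and 53.6 against 96.2 and 223 CPM (log2 fold change -1.49, SE 0.49), and was at -0.66 without that library.

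The remaining enzymes of the squalene branch had smaller differences. Lss, which closes the sterol ring, was at 8.36 and 8.67 against 17.4 and 22.6 CPM (log2 fold change -1.27, SE 0.40). The reductases Tm7sf2 (6.90 and 4.57 against 17.8 and 11.8 CPM) and Lbr (6.85 and 7.34 against 12.7 and 17.9 CPM), which act on the same step, had log2 fold changes of -1.40 (SE 0.45) and -1.14 (SE 0.44). Lbr also anchors chromatin at the nuclear envelope. Lss, Tm7sf2 and Lbr were thus lower in both fasted libraries than in either fed one.

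Hsd17b7, the ketoreductase of methyl removal, overlapped between groups at 15.3 and 14.6 against 13.1 and 23.7 CPM. Dhcr7, which makes the last double-bond reduction of one route to cholesterol, overlapped as well at 8.87 and 13.5 against 11.9 and 26.6 CPM (log2 fold change -0.82, SE 0.55), and its value was -0.043 without fed replicate 2. Ebp, the sterol isomerase, had 18.8 and 16.2 CPM after fasting against 18.7 and 8.71 CPM with food. It was the gene of the branch with a positive sign (log2 fold change 0.33, SE 0.45), and turned to -0.063 without fed replicate 2.

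Promoters were searched because the synthesis genes were lower together and are known targets of SREBP2, which binds sterol regulatory elements beside the factors NF-Y and Sp1. Those of 4 genes, with the lowest fold changes among genes with an entry, are shown. Of these, Soat1 is not a synthesis gene, and its fold change rests on 9 and 0 UMIs after fasting against 29 and 23 with food. RefSeq promoter windows (GRCm38.p6, 250 bases before to 50 after the transcription start) were found for 25 of the 32 genes, 29 windows in all. Sqle, Fdps, Stard4, Fdft1, Npc1, Soat2 and Scarb1 had no window and were not searched. The classic sterol regulatory element SRE-1, searched by its consensus on both strands, matched in 0 of these 29 windows and in 0.0913% of 32851 windows of all genes. With 1 free base in the middle it matched in 0 and 0.234%. At shares this low, 0 of 29 does not show that these promoters lack the element. Other variants of it were not searched. CCAAT, the core of an NF-Y site, lay in 20 of the 29 windows against 37.4% of all windows. GGGCGG, the core of an Sp1 site, lay in 24 of the 29 against 35.7%. Both were counted on either strand, and an overlap of both motifs counted for each. A match is a description of letters and says nothing of binding. The printed runs keep only bases outside annotated exons, and capitals mark matches to these cores or their reverse complements.
Mvd, chr8:122443423-122443672, minus strand: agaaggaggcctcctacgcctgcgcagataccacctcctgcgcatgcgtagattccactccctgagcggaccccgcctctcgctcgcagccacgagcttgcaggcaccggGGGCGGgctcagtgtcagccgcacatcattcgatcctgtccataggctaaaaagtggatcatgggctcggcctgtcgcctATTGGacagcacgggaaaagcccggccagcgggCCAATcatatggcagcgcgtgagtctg
Cyp51, chr5:4104747-4104947, minus strand: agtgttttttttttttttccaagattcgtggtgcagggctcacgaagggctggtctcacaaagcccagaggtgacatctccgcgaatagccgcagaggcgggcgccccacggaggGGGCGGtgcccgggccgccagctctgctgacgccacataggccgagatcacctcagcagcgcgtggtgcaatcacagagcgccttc
Nsdhl, chrX:72918412-72918520, plus strand: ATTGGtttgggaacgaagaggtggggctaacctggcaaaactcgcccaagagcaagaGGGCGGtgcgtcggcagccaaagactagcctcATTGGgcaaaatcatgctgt
Soat1, chr1:156474332-156474578, minus strand: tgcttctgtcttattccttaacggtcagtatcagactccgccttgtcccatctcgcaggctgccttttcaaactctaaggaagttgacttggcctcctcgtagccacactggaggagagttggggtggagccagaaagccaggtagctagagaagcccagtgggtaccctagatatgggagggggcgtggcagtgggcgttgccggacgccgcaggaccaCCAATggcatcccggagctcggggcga

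The genes of SREBP2 and its processing had a median log2 fold change of -0.083, and none of the 4 had an unadjusted p under 0.05. Srebf2, which encodes SREBP2, was at 52.5 and 73.3 CPM after fasting against 52.8 and 99.8 CPM with food, with overlap (log2 fold change -0.33, SE 0.45). Scap, its sterol-sensing escort, was at 80.0 and 98.6 against 73.0 and 97.1 CPM (log2 fold change 0.03, SE 0.35). Neither gene separated the groups.

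The proteases that release the active factor were also close to level. Mbtps1 was at 52.9 and 47.8 against 47.2 and 43.4 CPM (log2 fold change 0.12, SE 0.30), and Mbtps2 at 40.7 and 34.3 against 41.3 and 42.5 CPM (log2 fold change -0.20, SE 0.32). At standard errors of 0.30 to 0.45, differences of that size on the log2 scale were not detectable in these 4 genes.

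Uptake genes differed more between preparations than between groups. Scarb1, the receptor for high-density lipoprotein, was at 175 and 285 CPM after fasting against 136 and 331 CPM with food. Lrp1, a large receptor for remnant particles, was at 297 and 514 against 373 and 504 CPM. In both genes replicate 2 was the higher of each group. Mylip, a ubiquitin ligase that removes lipoprotein receptors, was at 31.0 and 48.6 against 31.6 and 74.9 CPM. Their log2 fold changes were -0.08 (SE 0.53), -0.15 (SE 0.41) and -0.47 (SE 0.53), and all 3 turned positive without fed replicate 2, to 0.80, 0.17 and 0.38.

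Among trafficking genes Stard4, a soluble carrier of sterols, followed the synthesis genes, at 27.1 and 12.7 CPM after fasting against 104 and 79.7 CPM with food. The groups were far apart (log2 fold change -2.24, SE 0.44; adjusted p = 0.452 in edgeR and 0.00176 in DESeq2). Npc1 and Npc2, which export cholesterol from lysosomes, overlapped between groups. Npc1 was at 222 and 262 against 112 and 283 CPM, so that fed replicate 1 alone stood low. Npc2 was at 7.0 and 9.80 against 7.48 and 15.2 CPM.

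The enzymes that esterify cholesterol for storage differed in sign. Soat2, the hepatocyte form, was at 27.1 and 19.9 CPM after fasting against 15.6 and 18.7 CPM with food, without overlap (log2 fold change 0.41, SE 0.38, and 0.21 without fasted replicate 1). Soat1, the form of macrophages and many other cells, was barely detected, with 9 and 0 UMIs after fasting and 29 and 23 with food, or 0.423, 0, 1.71 and 3.34 CPM. A count of 0 in fasted replicate 2 allows up to 0.154 CPM (3 counts; counting error only). The fitted log2 fold change of -3.55 (SE 1.25) rests on these counts.

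A Kupffer marker had the same direction as Soat1. Clec4f, which Kupffer cells alone are known to make in liver, was at 0.0939 and 0.410 CPM in hepatocyte sums after fasting against 0.707 and 3.63 CPM with food. The whole list of 10 Kupffer markers summed to 295 and 374 CPM after fasting and to 270.4 and 270.2 CPM with food. None of the 10 was at 0 in all libraries. Their part in the Soat1 difference was not tested.

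Related sterol genes, 58 in 6 lists, are given for comparison. None passed edgeR over all genes. Of 6 genes for acetyl-CoA supply, 4 were lower (50.7% of all genes) and 2 higher (49.3%). At an unadjusted p under 0.05 there were 2 in each direction, against 3.11% and 3.72% of all genes. Among them Aacs, which activates acetoacetate for sterol synthesis, was at 31.9 and 33.6 against 157 and 94.8 CPM (log2 fold change -1.96, SE 0.35) and passed DESeq2 at an adjusted p of 0.00367. Acly, which makes cytosolic acetyl-CoA, was at -1.40 (SE 0.35).

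In the list of sterol sensing and protein turnover, 8 of 13 genes were lower and 5 higher by sign, near the 50.7% and 49.3% of all genes, with 3 and 2 at an unadjusted p under 0.05 (3.11% and 3.72%). Srebf1, the sister factor of Srebf2 that drives fat synthesis, was at 15.9 and 15.8 against 100.0 and 141 CPM (log2 fold change -2.97, SE 0.37) and passed DESeq2. The Insig proteins, which hold Scap in the endoplasmic reticulum, had opposite signs. Insig1 was at 25.2 and 11.5 against 49.7 and 47.3 CPM (log2 fold change -1.45, SE 0.44). Insig2 was at 248 and 401 against 80.8 and 118 CPM (log2 fold change 1.67, SE 0.42; DESeq2 adjusted p = 0.0394).

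The isoprenoid side branches were flat, with a median log2 fold change of 0.033 and 0 of 10 genes at an unadjusted p under 0.05. The largest values there belonged to Dhdds (-0.55), Fnta (0.47) and Nus1 (-0.37). For efflux the largest were Abcg1 (-1.14, under 2 CPM in every library), Abcg5 (-0.87) and the cholesterol exporter Abca1 (-0.85), the last at an unadjusted p under 0.05. Without fed replicate 2 Abcg1 was at -0.40 and Abcg5 at -0.074. For transport and ester hydrolysis they were Gramd1b (-1.43), the sterol carrier Stard5 (1.07) and Gramd1a (-0.88). For uptake helpers they were Sort1 (-1.49), Cd36 (0.94) and Sorl1 (-0.84, and -0.016 without fed replicate 2), none at an unadjusted p under 0.05.

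Levels by cell type are given as a description, without a test. Hepatocyte marker RNA in the other cell types amounted to 27.4% to 79.6% of its level in hepatocytes. By level alone, a transcript at or below such a share there cannot be told apart from hepatocyte RNA. The part of hepatocyte RNA in the values below was not tested. Fed replicate 2 held 123 endothelial, 89 stellate, 41 Kupffer and 20 cholangiocyte nuclei, so its values in these types rest on few UMIs.

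Soat1 was a gene of Kupffer cells, at 78.3 to 145 CPM there against at most 3.34 CPM in hepatocytes, 28.5 CPM in stellate and 24.7 CPM in endothelial nuclei. No Kupffer library overlapped any library of another type. Soat2 was reversed, at 15.6 to 27.1 CPM in hepatocytes and at most 12.4 CPM in Kupffer, 11.1 CPM in stellate and 9.67 CPM in endothelial nuclei. In cholangiocytes 1 library, at 17.4 CPM from 4 UMIs, overlapped the hepatocyte range.

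Npc2 was also highest in Kupffer nuclei, at 46.5 to 104 CPM, followed by endothelial nuclei at 11.8 to 32.9 CPM and hepatocytes at 7.0 to 15.2 CPM, the last 2 ranges overlapping. Lrp1 ran from 519 to 887 CPM in Kupffer nuclei, 297 to 514 CPM in hepatocytes, 228 to 387 CPM in stellate nuclei, 74.1 to 127 CPM in cholangiocytes and 65.7 to 187 CPM in endothelial nuclei. The Kupffer range lay just above that of hepatocytes, and the hepatocyte and stellate ranges overlapped.

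Endothelial nuclei held the most Mylip, at 204 to 434 CPM against 31.0 to 74.9 CPM in hepatocytes. The stellate range (78.2 to 178 CPM) and the cholangiocyte and Kupffer ranges, which start at 0 UMIs in fed replicate 2, lay between or beside them. Lbr was at 37.3, 38.7, 38.9 and 17.0 CPM in endothelial nuclei against 6.85, 7.34, 12.7 and 17.9 CPM in hepatocytes, and the low endothelial value came from 2 UMIs. Scarb1 overlapped across all 5 types. Npc1 was at 112 to 283 CPM in hepatocytes and 51.9 to 178 CPM in endothelial nuclei, with overlap.

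**Figure D3:**
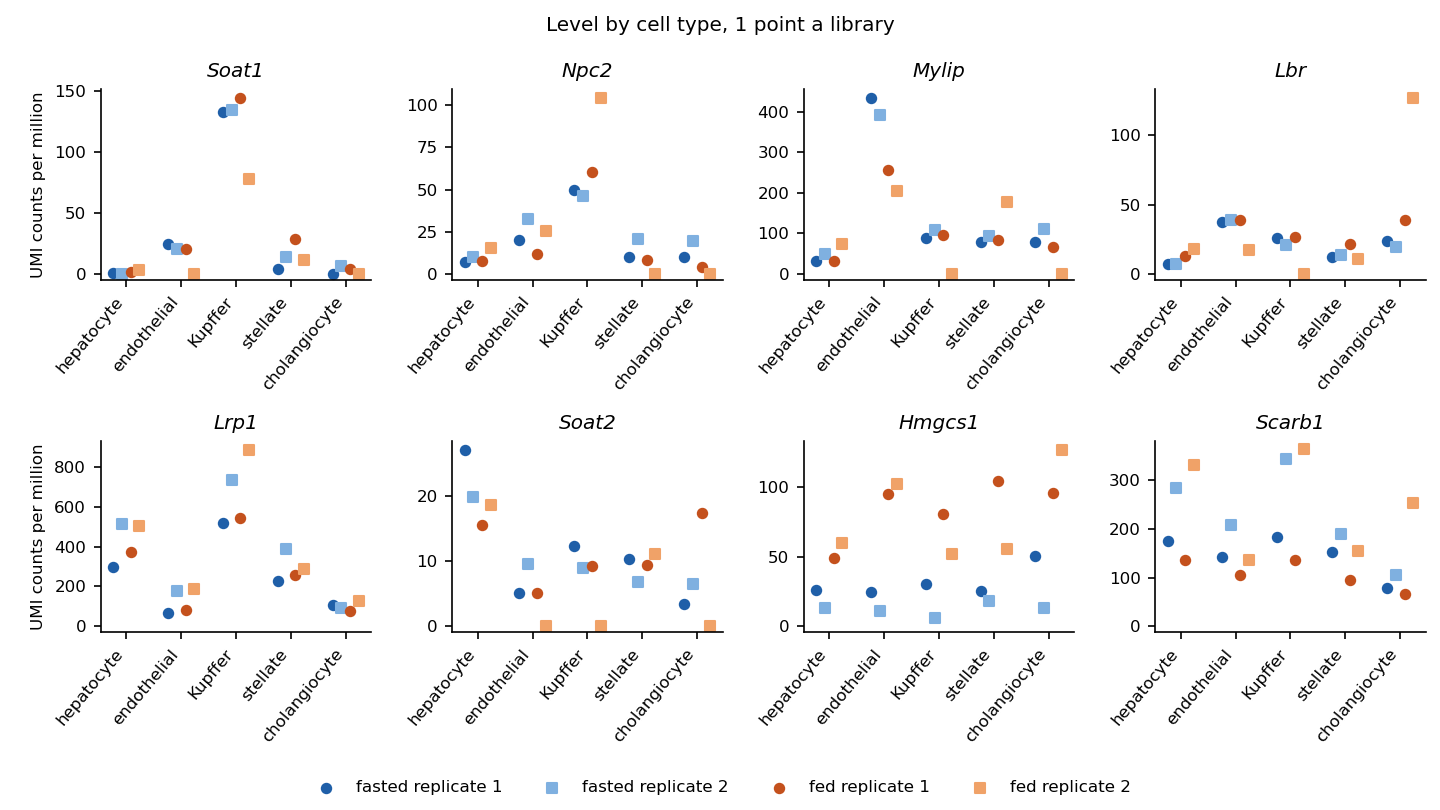
Level in CPM of 8 of the genes by cell type, 1 point per library (blue fasted, orange fed; circles replicate 1, squares replicate 2; linear axes that differ between panels). Soat1 and Npc2 are highest in Kupffer nuclei (78.3 to 145 and 46.5 to 104 CPM), Mylip in endothelial nuclei (204 to 434 CPM); several points of fed replicate 2 at 0 rest on few nuclei.

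In the other cell types no gene of the set passed adjustment, and the largest differences were mostly of synthesis genes at lower fasted values. These types also held hepatocyte marker RNA, at 27.4% to 79.6% of its hepatocyte level. The part of hepatocyte RNA in these differences was not tested. Of 28 genes of the set tested in endothelial nuclei, edgeR called 0 after adjustment (0.0198% of all genes passed as lower and 0.0297% as higher). At an unadjusted p under 0.05 it had 8 as lower, against 1.56% of all genes, and 1, Mylip, as higher, against 2.33%. DESeq2 called 0 there (0.155% and 0.0309% of all genes). The median over the 28 was -0.20 against 0.040 over all genes tested in this type.

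Hmgcs1 stood out in endothelial nuclei, at 24.7 and 10.6 CPM after fasting against 95.3 and 102 CPM with food, the last from 12 UMIs. Both fed endothelial values lay above those of fed hepatocytes (48.9 and 59.6 CPM). Its log2 fold change was -2.42 (SE 0.51; edgeR adjusted p = 0.219). It was called under the replicate block, without the low-count filter and without either fed library, with edgeR adjusted p-values from 2.2e-05 to 0.0332. It was not called without fasted replicate 1 (edgeR adjusted p = 0.116), without fasted replicate 2 (1), with the other scaling (0.233) or in DESeq2 (0.175).

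The other large differences in endothelial nuclei were also of synthesis genes. Sqle was at 1.40 and 1.93 against 10.1 and 25.5 CPM, from 3, 2, 18 and 3 UMIs (log2 fold change -2.94, SE 0.92). This was 36.2% to 108% of its hepatocyte level, and below the share of hepatocyte marker RNA in 3 of 4 libraries. These shares rest on the same few UMIs, and the part of hepatocyte RNA in them was not tested. Cyp51 (-2.86, SE 0.81), Fdps (-2.37, SE 0.79) and Fdft1 (-2.0, SE 0.68) were the next in size. They stood at 32.9% to 110%, 32.3% to 132% and 69.3% to 106% of their hepatocyte levels. Hepatocyte marker RNA in endothelial nuclei ran from 48.5% to 72.5%. Stard4, at 30.3 and 15.5 against 83.4 and 102 CPM, was near its hepatocyte level in each library (log2 fold change -1.95, SE 0.50).

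Kupffer nuclei had 4 of 20 tested genes lower at an unadjusted p under 0.05 in edgeR, against 0.987% of all genes, and 0 higher, against 3.91%. After adjustment edgeR called 0 (0.0247% of all genes lower, 0.037% higher), and so did DESeq2 (0.00562% and 0.0169%). The largest differences were Cyp51 (-2.68, SE 0.89), Stard4 (-1.95, SE 0.61), Hmgcs1 (-1.87, SE 0.70), Idi1 (-1.73, SE 0.60) and Msmo1 (-1.01, SE 0.60), the last at an unadjusted p of 0.109. In that order they stood at 53.0% to 136%, 82.6% to 106%, 45.3% to 165%, 71.5% to 330% and 59.6% to 99.1% of their hepatocyte levels. Hepatocyte marker RNA in Kupffer nuclei ran from 53.5% to 79.6%. Soat1, the gene Kupffer cells hold most of, was at 133 and 135 CPM after fasting against 145 and 78.3 CPM with food, the last from 3 UMIs (log2 fold change 0.18, SE 0.46).

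Stellate nuclei had 4 of 15 lower at an unadjusted p under 0.05 in edgeR, against 1.15% of all genes, and 0 higher, against 1.84%. After adjustment edgeR called 0 (0.0133% of all genes lower, 0.0265% higher), and so did DESeq2 (0.0108% and 0.0216%). Msmo1 (-2.05, SE 0.65), Hmgcs1 (-1.91, SE 0.56), Fdft1 (-1.82, SE 0.76) and Stard4 (-1.62, SE 0.63) were those 4, and Idi1 followed at -1.61 (SE 0.91). The 4 stood at 40.1% to 76.2%, 93.2% to 213%, 40.7% to 101% and 55.0% to 92.7% of their hepatocyte levels. Hepatocyte marker RNA in stellate nuclei ran from 27.9% to 72.0%. Hmgcs1 in stellate nuclei was at 25.1 and 18.3 CPM after fasting against 104 and 55.6 CPM with food, without overlap. Idi1 had 0 UMIs in the second library of each group.

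Cholangiocyte nuclei, the thinnest type, had 1 of 13 lower (1.40% of all genes) and 2 higher (2.95%) at an unadjusted p under 0.05, and 0 called after adjustment by edgeR (0.0656% of all genes in each direction). DESeq2 called 0 (0% of all genes). Hmgcs1 was at -1.41 (SE 0.67), Idi1 at -1.80 (SE 0.96) and Stard4 at -1.44 (SE 0.76). Of Idi1 there were 0 UMIs in fasted replicate 2. Srebf2 (1.88, SE 0.77) and Mbtps2 (1.65, SE 0.77) had the opposite sign, with 0 UMIs of either in fed replicate 2.

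**Figure D4:**
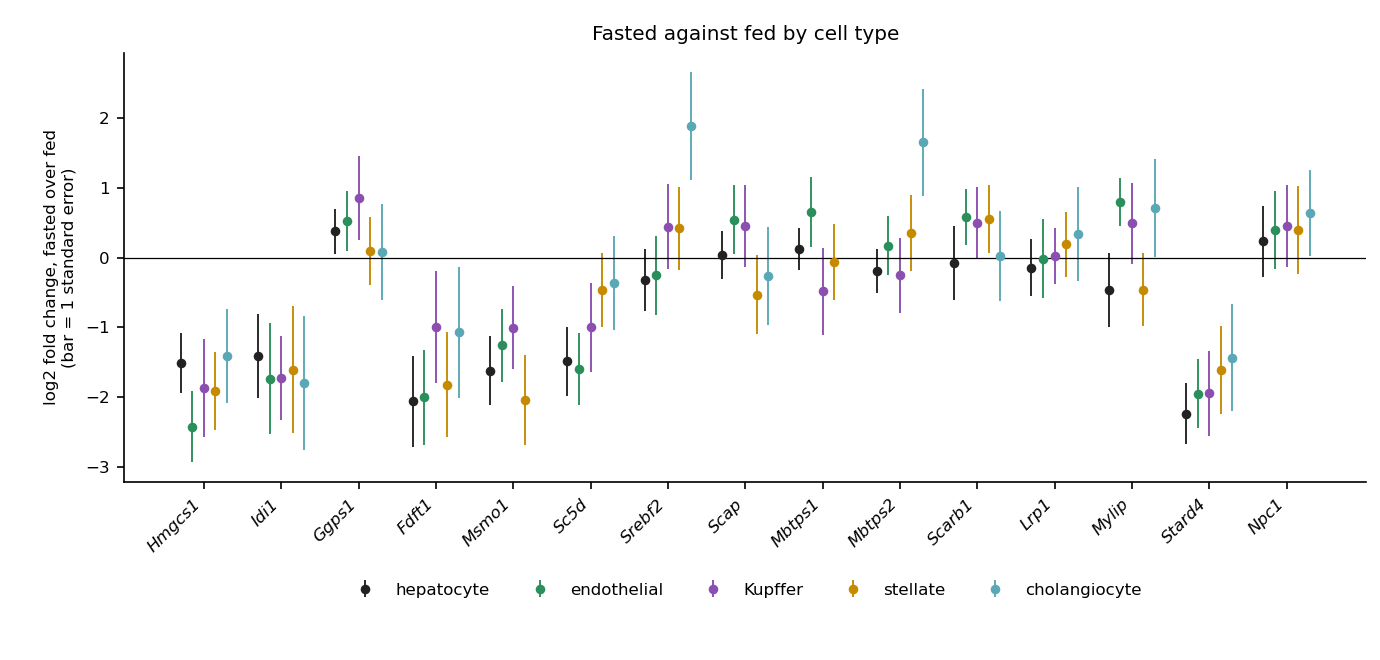
Log2 fold change, fasted over fed, of the 15 genes tested in at least 3 cell types besides hepatocytes (edgeR, bars 1 SE). Hmgcs1, Idi1, Fdft1, Stard4, Sc5d and Msmo1 lie below 0 in every type in which they were tested. Stard4 lies between -2.24 in hepatocytes and -1.44 in cholangiocytes. Idi1 had libraries at 0 UMIs in stellate and cholangiocyte nuclei. The part of hepatocyte RNA in the other types was not tested.

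Whether the fasting difference itself differed between hepatocytes and another type was tested in 1 model over both types. No gene of the set passed in edgeR for any of the 4 types, where 0.608% of all genes passed as lower and 0.0761% as higher against Kupffer nuclei, 0.113% and 0.0103% against endothelial, 0.0897% and 0.112% against cholangiocyte and 0% against stellate nuclei. At an unadjusted p under 0.05, 2 genes were lower against Kupffer nuclei (7.25% of all genes; 0.913% and 0 of the set higher) and 2 against cholangiocytes (3.45%; 1.41% and 0 of the set higher). Against endothelial nuclei 2 were lower (3.70%) and 1 higher (1.64%), and against stellate nuclei 0 in either direction (1.33% and 0.715%). The smallest adjusted p was 0.0592, for Soat1 against Kupffer nuclei, with a log2 difference of -3.35 (SE 0.79). It was 0.00334 without fasted replicate 1, where the fasted hepatocytes are 1 library at 0 UMIs of Soat1, and 1 without fasted replicate 2. Without fed replicate 1, without fed replicate 2 and with the other scaling it was 0.459, 0.15 and 0.179. For Hmgcs1 the difference between hepatocytes and endothelial nuclei was 1.09 (SE 0.32; edgeR adjusted p = 0.451).

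Along the lobule, from the portal vein to the central vein, hepatocyte nuclei were placed by a score of 10 pericentral and 11 periportal landmark genes, none of them in the set, and split into 3 bins in each library. The outer bins of a library held 1617 and 1618 nuclei in fasted replicate 1, 1421 and 1422 in fasted replicate 2, 1455 and 1456 in fed replicate 1 and 531 and 532 in fed replicate 2. In the pericentral bin 7 of the 32 genes were lower and 3 higher at an edgeR adjusted p under 0.05, against 7.77% and 7.85% of all 12385 genes. At an unadjusted p under 0.05 these counts were 11 and 4, against 13.0% and 12.6% of all genes. By sign 23 were lower, against 50.9% of all genes, and 9 higher, against 49.1%, with a median log2 difference (pericentral over periportal) of -0.27 against -0.0052. For each of the 10 genes all 4 libraries had the same sign.

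Dhcr7 showed the steepest course toward the portal side. Its CPM fell from the periportal to the pericentral bin from 16.0 to 4.88 and from 19.8 to 8.79 in the fasted libraries, and from 15.3 to 6.23 and from 36.2 to 20.2 in the fed ones. The log2 difference was -1.30 (SE 0.16; edgeR adjusted p = 1.71e-05). So a gene that overlapped between fasted and fed hepatocytes differed by position in each library.

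Sqle fell from 4.21 to 1.81 and from 2.78 to 0.757 CPM in fasted, and from 35.8 to 19.2 and from 51.2 to 22.1 CPM in fed hepatocytes (log2 difference -1.11, SE 0.18; edgeR adjusted p = 0.000181). Cyp51 fell by 0.89 on the log2 scale (SE 0.15; edgeR adjusted p = 0.000327), from 9.94 to 6.42, 6.61 to 2.73, 37.6 to 20.1 and 45 to 26 CPM in the same order of libraries. Both genes kept a portal side with food and without it, at levels several times apart.

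Idi1 fell by 0.76 (SE 0.10; edgeR adjusted p = 3.18e-05), from 96.3 to 58.2 CPM in fed replicate 1 and by a like factor in the other libraries. Srebf2 fell by 0.46 (SE 0.10; edgeR adjusted p = 0.00412), and this call was lost without fasted replicate 2 at -0.30 (adjusted p = 0.0802). Hmgcs1 (-0.45, SE 0.14) and Sc5d (-0.42, SE 0.12) passed at an edgeR adjusted p of 0.0443 each. The call of Hmgcs1 was lost with odd-numbered or even-numbered landmarks alone and without fasted replicate 2 or fed replicate 2. That of Sc5d was lost with odd-numbered landmarks and without fed replicate 1 or fed replicate 2.

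**Figure D5:**
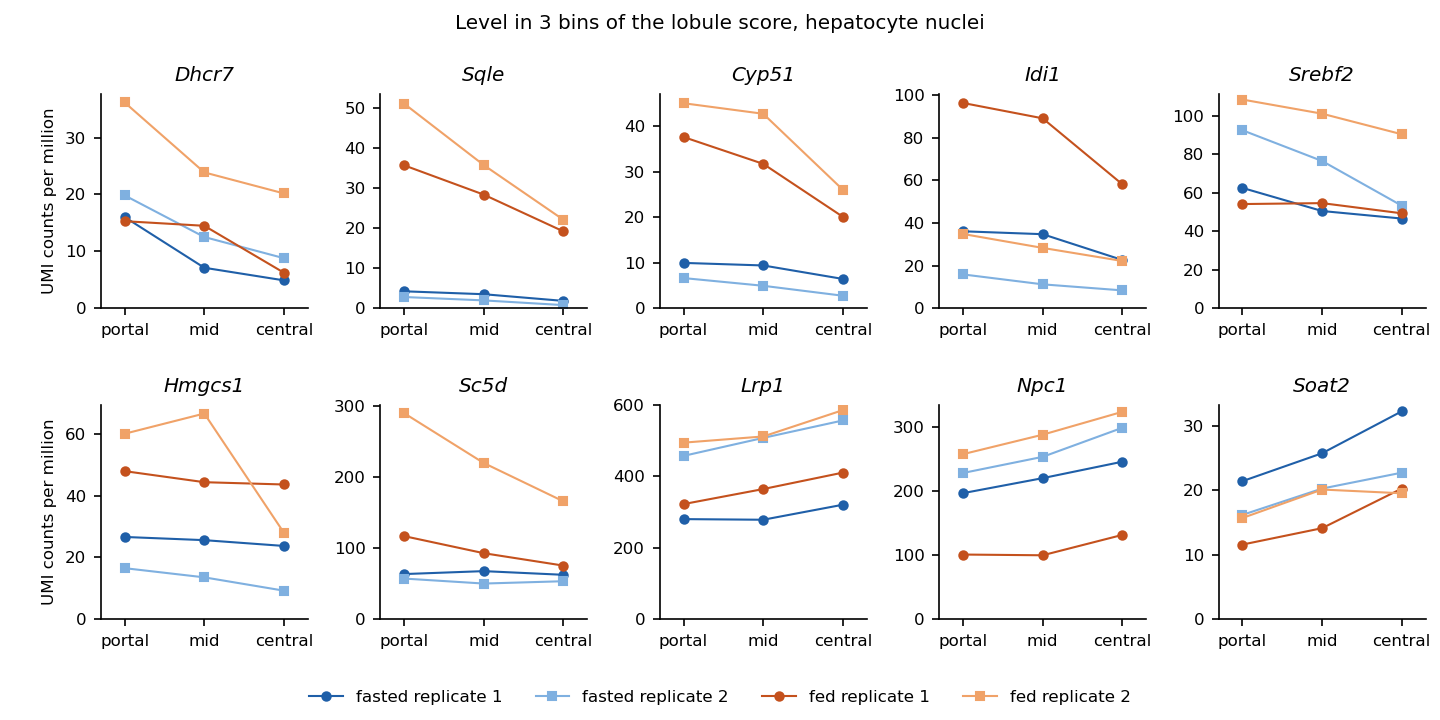
Level in CPM of the 10 genes that passed along the lobule, in the periportal, middle and pericentral bin of hepatocyte nuclei (lines are libraries, blue fasted, orange fed; axes from 0). The first 7 panels go down toward the central vein, as Dhcr7 from 36.2 to 20.2 CPM in fed replicate 2, and Lrp1, Npc1 and Soat2 go up.

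The 3 genes that rose toward the central vein, a share near that of all genes, were Soat2, Npc1 and Lrp1. Others of their groups did not pass, with Scarb1 at 0.02, Mylip at 0.08, Npc2 at -0.37 and Soat1 at -0.46. Soat2 rose from 21.4 to 32.2, 16.2 to 22.7, 11.6 to 20.3 and 15.7 to 19.5 CPM (log2 difference 0.55, SE 0.13; edgeR adjusted p = 0.00454). Npc1 rose by 0.33 (SE 0.06; edgeR adjusted p = 0.000472) and Lrp1 by 0.24 (SE 0.06; edgeR adjusted p = 0.00529). The call of Soat2 was lost with even-numbered landmarks alone, at 0.35 (edgeR adjusted p = 0.0501). The differences of Npc1 and Lrp1 were small but alike in all 4 libraries, as from 101 to 132 CPM for Npc1 in fed replicate 1.

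The other 22 genes did not pass. Stard4 had a log2 difference of -0.66 (SE 0.21; edgeR adjusted p = 0.0910), and went from 106 to 44.3 CPM in fed replicate 2 but from 27.5 to 27.3 CPM in fasted replicate 1. Nsdhl (-0.47, SE 0.16) and Lss (-0.43, SE 0.16) were lower in the pericentral bin of all 4 libraries, at edgeR adjusted p-values of 0.053 and 0.0853. Fdft1 (-0.19), Msmo1 (-0.15), Scap (-0.10) and Scarb1 (0.02) lay nearer to 0.

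The lobule difference was then compared between fasted and fed hepatocytes. No gene of the set passed in edgeR, against 0.137% and 0.0484% of all genes in the lower and higher direction, and 1 gene in each direction had an unadjusted p under 0.05, against 3.37% and 3.50% of all genes. Sc5d had the smallest edgeR adjusted p, 0.0724. It went from 117 to 75.5 and from 290 to 166 CPM in the fed libraries and from 63.5 to 62.5 and from 57.2 to 53.5 CPM in the fasted ones. Its log2 difference was -0.73 in fed and -0.09 in fasted hepatocytes, and the difference between these was 0.64 (SE 0.13). Without fed replicate 1 or without fed replicate 2 it passed, at edgeR adjusted p-values of 0.00918 and 0.0232. It did not pass without fasted replicate 1 (0.856), without fasted replicate 2 (0.484), with 5 bins (0.366), with no thinning (0.159) or with the other scaling (0.0915). Srebf2 was the gene of the other direction, with -0.65 in fasted and -0.21 in fed hepatocytes (difference -0.44, SE 0.17; edgeR adjusted p = 0.577).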

How the data were processed

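Nuclei of frozen mouse liver, 2 libraries fasted and 2 fed, were counted with Cell Ranger 6.0 on mm10, per the submitters' processing notes. The deposited matrices hold raw UMI counts per gene and barcode, with 13.2% to 17.0% of stored entries at 0, for which the sources used here name no step. Nuclei were kept from 500 detected genes up and up to a mitochondrial share of 5%. Scrublet's automatic threshold failed in 3 libraries, so the highest scores were removed in proportion to the number of barcodes (233 to 1108 a library). Clusters came from scanpy 1.11.5 (2000 variable genes, 30 components, 15 neighbours) and leidenalg 0.10.2 at resolution 1, named by marker lists of 10 genes.

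Counts were summed per library and cell type with at least 20 nuclei and tested over all genes with edgeR 4.0.16 (robust quasi-likelihood, TMM scaling, filterByExpr, Benjamini-Hochberg), and DESeq2 1.42.0 as alternative, in R 4.3.3. The interaction used library as a block. Lobule scores used counts thinned to 1500 UMIs, which kept 1594 to 4853 hepatocytes a library, and the outer of 3 bins were fitted with library as a block. The script was tested on simulated data. The genes named are all 32 in hepatocytes, up to 5 of largest difference in each other type, those past the threshold along the lobule and up to 3 of each related list. The genes and lists were chosen with earlier results of these data known. Alternatives were another scaling, filter, clustering, binning, stored zeros counted as 1, and each library left out. Overlapping genes (Fdps and Gm43738, Tm7sf2 and Vps51, Mbtps2 and Yy2, and on opposite strands Fdft1 and Ctsb, Ggps1 and Arid4b, Cyp51 and Akap9) may share reads, since the sources used here do not say how counting treated strand. Unnamed nuclei were left out of cell type comparisons. A few genes of the related and marker lists are not reported here by name.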

Additional observations from a re-analysis of the deposited data

Results flagged for a closer look

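Among related genes, Insig2, which encodes a protein that holds Scap in the endoplasmic reticulum, had a lobule difference that differed between feeding states by the interaction test. It went from 329 CPM in the periportal to 201 CPM in the pericentral bin of fasted replicate 1 and from 499 to 315 CPM in fasted replicate 2, against 79.6 to 77.9 CPM in fed replicate 1 and 106 to 142 CPM in fed replicate 2. The log2 difference between fasted and fed was -0.84 (SE 0.13; edgeR adjusted p = 0.0132, where 0.137% of all genes passed in this direction). The adjusted p was 0.0857 with 5 bins, 0.189 without fasted replicate 1 and 0.0695 without fasted replicate 2, and ran from 1.93e-05 to 0.0171 in the other alternatives. Groups of 2 libraries are too small for a test of single outlying libraries.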

How the results depend on the processing

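The count of genes called lower in hepatocytes, 0 in edgeR, was 6 with DESeq2, 10 without the low-count filter and 0 to 12 without each library in turn. Calls over all genes went from 1 to 164 with DESeq2, 263 without the filter and 10 to 629 without each library. The count lower at an unadjusted p under 0.05, 14, ran from 7 to 18 without each library. The median of -1.21 was -0.88 over all nuclei and ran from -1.24 to -0.46 without each library. Nuclei of at least 1500 UMIs, chosen after seeing the data, gave -1.23 and 0 calls. Without each library in turn, log2 fold changes in hepatocytes that changed sign ran from -0.76 to 0.22 for Hsd17b7, -0.063 to 0.91 for Ebp, -0.76 to 0.29 for Srebf2, -0.22 to 0.33 for Scap, -0.62 to 0.80 for Scarb1, -0.65 to 0.22 for Lrp1, -1.0 to 0.38 for Mylip, -0.32 to 1.15 for Npc1 and -0.95 to 0.21 for Npc2. Among related genes they ran from -2.29 to 0.37 for Gramd1b, -2.26 to 0.29 for Sort1 and -0.064 to 1.53 for Cd36. Over all nuclei Scap (-0.077), Abcg1 (0.23), Gramd1b (0.40) and Sorl1 (0.17) changed sign, as did Scap (-0.0033) with stored zeros counted as 1. Idi1 in stellate nuclei ran from -7.52 to 6.72, fitted values against libraries at 0 UMIs. The causes were not tested.

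Replicate numbers carry no stated pairing. Same-numbered hepatocyte libraries correlated at 0.431 in their deviations from group means. With 2 libraries a group this is a single value, and crossed numbers give -0.431 by construction. It therefore cannot decide whether replicates were paired. With the replicate number as a block edgeR called 4 genes lower in hepatocytes (Sqle, Fdps, Nsdhl, Stard4) and 7 in endothelial nuclei, where it called 80 and 207 of all genes against 1 and 5 without it, and the block turned Scarb1 to 0.038. Endothelial calls, 0 as reported, were 1 without the low-count filter, where 46 of all genes were called against 5 with it.

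The lobule calls, 7 lower and 3 higher, ran from 5 to 10 and from 2 to 3 over all alternatives. Calls over all genes in either direction, 1934 as reported, ran from 1336 to 2093 over the same alternatives. The median of -0.27 over the 32 genes was -0.38 with 5 bins and ran from -0.29 to -0.18 without each library. With all 4 libraries kept, no gene of the set was called for the lobule difference between feeding states, against 18 to 32 of all genes. For hepatocytes against Kupffer nuclei none was called with the other scaling, against 28 of all genes. Depth limits fed replicate 2 most, in the thin cell types above all.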

Other observations

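Of the 58 related sterol genes, 56 could be tested along the lobule, where 9 were lower and 13 higher in the pericentral bin at an edgeR adjusted p under 0.05 (7.77% and 7.85% of all genes). Of 6 genes for acetyl-CoA supply 3 were lower and 0 higher, with Acly at -1.83 (SE 0.10), while Acss2, Aacs and Slc25a1 lay between -0.0092 and 0.027. Srebf1 (-0.63, SE 0.10) and Insig1 (-0.61, SE 0.12) were lower in the pericentral bin as well. Of 8 efflux genes 4 were higher there, among them the bile transporters Abcg8 (0.64, SE 0.09) and Abcg5 (0.52, SE 0.11), while Apoa1 was lower (-0.68, SE 0.07). Of 9 uptake helpers 6 were higher, among them Cd36 at 1.99 (SE 0.23) and Sort1 at 1.58 (SE 0.13). None of the 10 isoprenoid genes passed. These genes were named after their values were seen.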
